A study of Homo sapiens with 32 samples.

Results

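The heat shock chaperones HSPA1A, HSPA1B, HSPA8, HSPH1, HSP90AA1, HSP90AB1, DNAJB1, HSPB1, HSPD1 and HSPE1 were followed by RNA-Seq in SK-N-BE(2) cells, an established human neuroblastoma line, during treatment with cannabidiol (CBD). They were chosen by gene symbol, with earlier results of these data known, and are 10 of the 22610 entries of the expression table. Cells were treated with 20 µM CBD dissolved in ethanol or with vehicle alone (0.1% ethanol) and were harvested after 3, 6, 12 or 24 h, which gave 4 samples in each of 8 groups and 32 altogether. Both arms therefore contained ethanol, and no untreated group was profiled. Values are FPKM, read fragments scaled to transcript length and to the size of the library, so levels of different genes can be set side by side. The set was labelled as cytosolic, and this holds for 8 of its members, whereas HSPD1 and HSPE1 are nuclear-encoded chaperonins of the mitochondrial matrix.

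Heat shock chaperones bind unfolded or partly folded proteins and help them to refold, or hold them until they are degraded. The HSP70 proteins (HSPA1A, HSPA1B, HSPA8) cycle between ATP and ADP states with the help of J-domain proteins such as DNAJB1, which deliver clients and stimulate ATP hydrolysis, and of HSP110 proteins such as HSPH1, which release the nucleotide. HSP90 acts later in folding and matures kinases and steroid receptors, and small heat shock proteins such as HSPB1 hold unfolded clients without ATP. Transcription of many of these genes rises under proteotoxic stress through heat shock factor 1 (HSF1), which binds arrays of nGAAn units called heat shock elements. HSPA1A, HSPA1B and DNAJB1 are inducible, and HSPA8 and HSP90AB1 are regarded as mostly constitutive.

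All 12 adrenergic neuroblastoma markers checked were above 0 in every sample, with mean FPKM from 7.17 for DBH to 1762 for MYCN over the 32 samples. Of 7 mesenchymal markers, SNAI2 (7.96), COL1A1 (1.5) and FN1 (0.822) were present and the other 4 had means under 0.02. Of 5 keratinocyte markers with values, KRT10 had 7.11 and the other 4 had means under 0.05, and the blood markers PTPRC and CD3E had means under 0.01. The part of these markers in the results was not tested. Read totals are not recorded in FPKM, and relative depth estimated from the lowest values ranged from 0.785 to 1.20 between samples. The median absolute deviation of all tested genes from their group mean was 0.074 on the log2 scale in CBD 3 h replicate 1, 0.055 in CBD 3 h replicate 4 and 0.054 in CBD 6 h replicate 4, and 0.021 to 0.048 in the other libraries. Left out one at a time, these 3 libraries did not change the counts of chaperones called higher at 3 or 6 h given below. In bulk RNA, fewer expressing cells and less transcript per cell cannot be told apart.

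The promoters of the 7 members called with CBD at any time are shown, because the heat shock element is the known HSF1 binding unit. Where a gene has several entries, the one with most matches is printed. They are RefSeq promoters of GRCh38.p14, 250 bases before to 50 bases from the start site on, printed 5′ to 3′ on the strand of the gene. Capitals mark matches to GAANNTTC or TTCNNGAA, which are 2 alternating units of the element and read the same on both strands, with overlapping matches merged.
HSPA1A, chr6:31815293-31815592, plus strand: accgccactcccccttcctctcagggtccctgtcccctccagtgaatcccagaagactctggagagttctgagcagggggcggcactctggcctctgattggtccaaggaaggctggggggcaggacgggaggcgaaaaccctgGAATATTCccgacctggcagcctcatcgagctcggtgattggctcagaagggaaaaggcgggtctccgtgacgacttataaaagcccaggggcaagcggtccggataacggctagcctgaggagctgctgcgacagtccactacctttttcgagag
HSPA1B, chr6:31827488-31827787, plus strand: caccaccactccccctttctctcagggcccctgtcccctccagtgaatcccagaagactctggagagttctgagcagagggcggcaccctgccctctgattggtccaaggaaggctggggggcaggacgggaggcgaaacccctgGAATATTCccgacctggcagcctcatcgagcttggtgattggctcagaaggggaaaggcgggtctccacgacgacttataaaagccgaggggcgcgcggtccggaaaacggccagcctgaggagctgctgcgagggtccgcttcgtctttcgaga
DNAJB1, chr19:14518348-14518647, minus strand: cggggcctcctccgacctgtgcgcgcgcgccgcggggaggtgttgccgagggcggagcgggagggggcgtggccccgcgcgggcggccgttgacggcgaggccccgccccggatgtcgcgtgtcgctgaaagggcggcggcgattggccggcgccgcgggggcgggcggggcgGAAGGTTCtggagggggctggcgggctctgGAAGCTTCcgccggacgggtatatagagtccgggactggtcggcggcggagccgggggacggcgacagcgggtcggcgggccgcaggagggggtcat
HSPA8, chr11:123062087-123062386, minus strand: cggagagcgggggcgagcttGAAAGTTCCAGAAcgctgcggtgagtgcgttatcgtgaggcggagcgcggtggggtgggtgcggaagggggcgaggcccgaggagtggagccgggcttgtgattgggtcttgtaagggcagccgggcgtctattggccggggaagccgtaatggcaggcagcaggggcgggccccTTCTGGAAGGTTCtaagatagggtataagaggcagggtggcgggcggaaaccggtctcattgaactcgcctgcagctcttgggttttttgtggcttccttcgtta
HSP90AA1, chr14:102086995-102087294, minus strand: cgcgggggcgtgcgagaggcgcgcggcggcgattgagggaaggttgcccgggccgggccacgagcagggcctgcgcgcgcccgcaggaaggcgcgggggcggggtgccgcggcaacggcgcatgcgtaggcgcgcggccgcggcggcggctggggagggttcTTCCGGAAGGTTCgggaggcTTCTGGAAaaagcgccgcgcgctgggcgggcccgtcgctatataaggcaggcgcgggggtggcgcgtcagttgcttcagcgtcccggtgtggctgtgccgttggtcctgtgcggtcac
HSPB1, chr7:76302423-76302722, plus strand: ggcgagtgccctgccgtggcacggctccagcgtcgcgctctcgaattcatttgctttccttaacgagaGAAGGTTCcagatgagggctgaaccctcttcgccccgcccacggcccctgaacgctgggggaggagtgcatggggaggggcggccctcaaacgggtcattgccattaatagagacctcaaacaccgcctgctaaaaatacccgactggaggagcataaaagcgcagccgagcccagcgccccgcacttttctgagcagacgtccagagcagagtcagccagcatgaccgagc
HSPE1, chr2:197500129-197500428, plus strand: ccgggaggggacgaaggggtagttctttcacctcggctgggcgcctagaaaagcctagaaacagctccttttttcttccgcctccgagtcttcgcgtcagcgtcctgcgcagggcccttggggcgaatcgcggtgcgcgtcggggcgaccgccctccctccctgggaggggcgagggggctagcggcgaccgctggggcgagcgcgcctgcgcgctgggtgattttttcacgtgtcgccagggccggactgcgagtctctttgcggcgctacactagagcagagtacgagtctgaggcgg

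All 10 members had a promoter entry, 16 entries in all since some genes have several start sites. HSPA1A and HSPA1B, neighbouring genes on chromosome 6, each held a single GAATATTC, from −106 to −99 and from −105 to −98 relative to the start site. The DNAJB1 promoter shown held GAAGGTTC from −77 to −70 and GAAGCTTC from −47 to −40. HSPA8 held GAAAGTTCCAGAA from −230 to −218 and TTCTGGAAGGTTC from −55 to −43, and HSP90AA1 held TTCCGGAAGGTTC from −88 to −76 and TTCTGGAA from −68 to −61. HSPB1 held GAAGGTTC from −182 to −175. A 2-unit match was found for 8 of 10 members, in 9 of their 16 promoter entries, and in 13.5% of the 35116 RefSeq promoters. A 3-unit match (alternating GAA and TTC units with 2 bases between neighbours, starting from either unit) was found in 4 of the 16 entries, 1 each of HSPA8, HSP90AA1, HSP90AB1 and HSPD1, and in 0.490% of all promoters. The shares of all promoters are per entry, as are the counts out of 16. Because the members were chosen as heat shock chaperones, these counts describe the set and are no independent test of it. The HSPD1 entry held the longest run, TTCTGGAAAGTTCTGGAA, from −245 to −228. No match was found in the windows of HSPH1 and HSPE1, which says only that these letters are absent there. The HSPD1 entry with the longest run is chr2:197499791-197500090 on the minus strand, and the HSPE1 window is chr2:197500129-197500428 on the plus strand. That run therefore lies between the start sites of the 2 genes, outside the HSPE1 window but close to its upstream end.

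The levels of the 10 transcripts spanned more than 2 orders of magnitude. In vehicle at 3 h, HSP90AB1 was highest with 1019 ± 23.6 FPKM (SD, n = 4), followed by HSP90AA1 with 873 ± 48.2 and HSPA8 with 855 ± 33.8, and samples of these last genes overlapped. HSPD1 had 449 ± 14.7 FPKM and HSPE1 331 ± 10.7, and neither overlapped its neighbours in this order. HSPB1 followed with 113 ± 5.29, DNAJB1 with 61.7 ± 2.54, HSPH1 with 33.6 ± 1.15, HSPA1B with 13.9 ± 0.667 and HSPA1A with 6.05 ± 0.239 FPKM. The inducible HSP70 genes were thus the scarcest members in vehicle. The HSPA1A and HSPA1B values are uncertain between the genes, because 75.1% of the 50-base words of the HSPA1A transcript also occur in HSPA1B, and reads were allowed to map to up to 2 locations. On hg19, HSPA1A lies at chr6:31783320-31785723 and HSPA1B begins 9792 bases further on, and each is a single-exon gene on the plus strand in GENCODE version 44.

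Several chaperone transcripts were higher with CBD at the early times and lower at 24 h. Members called higher with CBD, at an adjusted p under 0.01 in limma with Benjamini-Hochberg adjustment over 12621 genes, numbered 4 of 10 at 3 h, where 1.18% of all genes tested were called higher, and 6 of 10 at 6 h, where 4.07% were. No member was called lower at these times, against 1.28% and 6.13% of genes. Because the members were chosen with earlier results of these data known, these counts describe the set and are no independent test of it. HSPA1A and HSPA1B, whose reads cannot be fully told apart, count as 2 members throughout. At 12 h 1 member was higher (8.85% of genes) and 1 lower (11.2%), and at 24 h 1 was higher (20.8%) and 5 were lower (21.3%). The median log2 difference of the members was 0.14 at both 3 and 6 h, 0.05 at 12 h and −0.13 at 24 h, while the median of all genes tested stayed between −0.0048 and 0.0066. The fold changes are on the log2(FPKM + 1) scale, which understates changes of low genes such as HSPA1A. All CBD samples lay above all vehicle samples for 5, 7, 2 and 1 members in order of time, against 5.52%, 8.46%, 13.4% and 25.1% of genes. They lay below all vehicle samples for no member before 24 h, against 4.36%, 11.1% and 16.9% of genes, and for 4 members at 24 h, against 25.9%. An exact two-sided permutation test gave p = 0.0286 for each member without overlap, the smallest value possible with 4 against 4 samples. When only the samples of a given time were fitted, calls were lost at 3 h for HSPA1B (adjusted p = 0.011), DNAJB1 (0.051) and HSPA8 (0.10), at 6 h for HSPA8 (0.030) and HSPB1 (0.021), at 12 h for DNAJB1 (0.037), and at 24 h for HSPA1A (0.019) and HSPE1 (0.016).

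**Figure D1:**
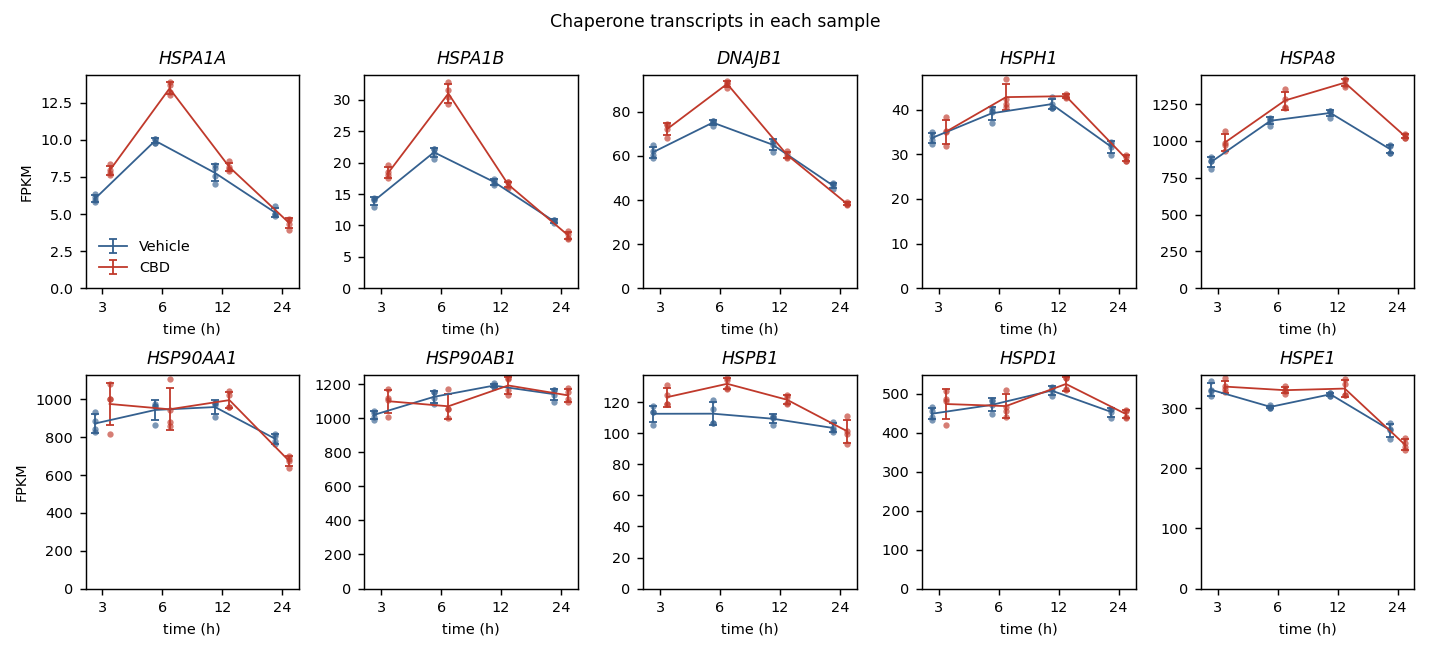
FPKM of the 10 chaperone transcripts in each of the 32 samples (points) against time in hours (evenly spaced), with group means and SDs (n = 4) for vehicle in blue and CBD in red. HSPA1A, HSPA1B and DNAJB1 peaked at 6 h in both arms, with CBD higher at 3 and 6 h and lower at 24 h, and HSPA8 was higher with CBD at all 4 times.

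HSPA1B, an inducible cytosolic HSP70, had the largest log2 differences of the 10 members at 3, 6 and 24 h. At 6 h the CBD samples had 31.5, 29.3, 30.4 and 32.8 FPKM and the vehicle samples 21.6, 22.2, 20.6 and 22.2. Every CBD sample was above every vehicle sample, by a log2 difference of 0.50 ± 0.04 (SE; limma, adjusted p = 6.4e-10), and the group means stood in a ratio of 1.43. At 3 h the CBD samples had 18.5, 18.1, 17.5 and 19.6 FPKM and the vehicle samples 14.4, 13.0, 14.3 and 14.0, again without overlap and with a log2 difference of 0.38 ± 0.04 (limma, adjusted p = 6.3e-07).
At 12 h no difference was called. The CBD samples had 16.3, 16.0, 16.9 and 16.9 FPKM and the vehicle samples 16.4, 17.1, 17.4 and 16.7, and these overlapped (log2 difference −0.04 ± 0.04, limma adjusted p = 0.56). At 24 h the CBD samples had 7.91, 8.01, 9.15 and 8.59 FPKM and the vehicle samples 10.6, 10.9, 10.3 and 10.9. All CBD samples were then below all vehicle samples, and the log2 difference was −0.31 ± 0.04 (limma, adjusted p = 2.8e-07).

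HSPA1A, its near-identical neighbour, followed the same course at a lower level. At 3 h the CBD samples had 7.79, 7.63, 7.95 and 8.34 FPKM and the vehicle samples 5.93, 5.79, 6.32 and 6.16, and at 6 h they had 13.7, 13.2, 13.0 and 13.9 against 9.80, 10.1, 9.81 and 10.1. The groups did not overlap at either time, with log2 differences of 0.34 ± 0.04 (adjusted p = 1.2e-05) and 0.40 ± 0.04 (limma, adjusted p = 1.2e-07). At 12 h the samples overlapped (log2 difference 0.06 ± 0.04, limma adjusted p = 0.28). At 24 h CBD samples had 4.31, 3.96, 4.65 and 4.63 FPKM, all below the vehicle samples with 5.03, 4.98, 4.86 and 5.56 (−0.18 ± 0.04, limma adjusted p = 0.00086). Fitted as a summed HSPA1A and HSPA1B value, which does not depend on how reads were shared between them, the log2 differences were 0.38, 0.48, −0.0021 and −0.28 at 3, 6, 12 and 24 h, and those at 3, 6 and 24 h were called.

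DNAJB1, the inducible HSP40 that works with these HSP70 proteins, also rose and then fell. At 3 h the CBD samples had 74.1, 72.2, 68.3 and 74.4 FPKM and the vehicle samples 64.9, 59.1, 62.3 and 60.4, and at 6 h they had 94.1, 92.9, 93.1 and 90.8 against 75.9, 75.9, 73.6 and 75.3. CBD samples were the higher ones without overlap at both times, by 0.23 ± 0.03 and 0.30 ± 0.03 on the log2 scale (limma, adjusted p = 1.6e-05 and 2.2e-08). At 12 h the CBD samples had 59.6, 61.1, 59.1 and 62.1 FPKM and the vehicle samples 67.0, 65.2, 66.6 and 61.6, and the highest CBD sample exceeded the lowest vehicle sample. That difference of −0.10 ± 0.03 was called (limma, adjusted p = 0.0073), but the call was lost under 5 alternative settings and without any one of 6 libraries (adjusted p = 0.010 to 0.037). At 24 h the CBD samples had 38.1, 37.5, 38.3 and 39.3 FPKM against 45.0, 47.6, 47.2 and 46.9 in vehicle, a difference of −0.28 ± 0.03 without overlap (limma, adjusted p = 9.6e-09).

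HSPA8, the constitutive cytosolic HSP70 also called HSC70, was the only member called higher at all 4 times. CBD samples had 933, 988, 971 and 1068 FPKM at 3 h and vehicle samples 862, 808, 861 and 888. At 12 h, when both arms were highest, CBD samples had 1415, 1379.9, 1418 and 1369 FPKM and vehicle samples 1205, 1203, 1195 and 1159. At no time did the arms overlap. The log2 differences were 0.21, 0.16, 0.23 and 0.13 at 3, 6, 12 and 24 h, each with an SE of 0.03 (limma, adjusted p = 0.00035, 0.0013, 1.1e-05 and 0.0022). At 24 h CBD samples lay between 1020.4 and 1051 FPKM and vehicle samples between 919 and 972. That call was lost under quantile normalization (adjusted p = 0.013) and without vehicle 24 h replicate 2 (adjusted p = 0.010). HSPA8 shares 16.5% of its 50-base words with other genes, mostly processed pseudogenes.

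HSPH1, an HSP110 nucleotide exchange factor for HSP70, was not called at any time in the main fit. With the replicate number as a block in the model, HSPH1 was called at 6 h (limma, adjusted p = 0.0092) and at 24 h (limma, adjusted p = 0.0046). At 6 h CBD samples had 42.3, 41.3, 40.6 and 46.9 FPKM and vehicle samples 39.7, 37.1, 39.5 and 40.4. The arms did not overlap, and the log2 difference was 0.12 ± 0.04 (limma, adjusted p = 0.045). Without CBD 6 h replicate 4, the highest sample, it was 0.079 (adjusted p = 0.17). At 24 h CBD samples spanned 28.4 to 29.9 and vehicle samples 29.9 to 32.7 FPKM (−0.12 ± 0.04, limma adjusted p = 0.025), and the differences at 3 and 12 h were 0.06 each. HSPH1 shared no 50-base word with another gene.

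HSP90AA1, the stress-responsive HSP90α gene, was called only at 24 h. CBD samples then had 637, 672, 683 and 701 FPKM and vehicle samples 779, 763, 808 and 820, which did not overlap (log2 difference −0.24 ± 0.07, limma adjusted p = 0.0062). Without vehicle replicate 1, 3 or 4 or CBD replicate 1, 2 or 3 of that time the adjusted p was 0.011 to 0.024. At 3 h CBD samples had 816, 1001, 1004 and 1083 FPKM and vehicle samples 827, 842, 888 and 934. The low CBD replicate 1 overlapped vehicle, and the difference was 0.15 ± 0.07 (limma, adjusted p = 0.18). Without that replicate it was 0.24 (adjusted p = 0.016). At 6 h CBD replicate 4 stood at 1106 FPKM above the other CBD samples, which spanned 858 to 945, and the log2 difference between the arms was −0.000069 ± 0.07.
The same libraries stood out for other abundant members. CBD 3 h replicate 1 was also the lowest of its group for HSP90AB1, HSPD1, HSPA8 and HSPH1, and CBD 6 h replicate 4 was the highest of its group for all of these. Averaged over the 10 members, their deviations from the group mean were −0.07 and 0.08 on the log2 scale. The most abundant entry held 33.4% and 32.5% of total FPKM in these libraries, with 32.5% the lowest and 38.2% the highest share of any library. The part of this share in the chaperone values was not tested.

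HSP90AB1, the constitutive HSP90β gene, was not called at any time. In order of time its log2 differences were 0.11, −0.08, −0.000061 and −0.0095, each ± 0.04 (limma, adjusted p between 0.12 and 1). The arms overlapped at every time. Mean levels at 24 h were 1134 ± 38.4 FPKM with CBD and 1141 ± 31.9 with vehicle.

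HSPB1 (HSP27), an ATP-independent small heat shock protein, was called at 6 h. CBD samples had 129, 136, 128 and 135 FPKM, and vehicle samples had 121, 116, 106 and 107. These did not overlap, and the log2 difference was 0.23 ± 0.05 (limma, adjusted p = 0.00067). The arms did not overlap at 3 h either (119 to 131 with CBD, 105 to 118 with vehicle) or at 12 h (119 to 125 against 105 to 111). Those differences of 0.13 ± 0.05 and 0.15 ± 0.05 were not called (limma, adjusted p = 0.076 and 0.012). At 24 h the arms overlapped fully, with 101 ± 7.35 and 104 ± 2.85 FPKM.

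Of the mitochondrial pair only HSPE1 was called, and the difference between the genes was not tested. HSPD1 (HSP60), which forms the folding chamber, was not called at any time, with log2 differences between −0.02 and 0.07. HSPE1 (HSP10), the lid of that chamber, was higher at 6 h, with 337, 328, 324 and 330.1 FPKM in CBD samples and 304, 300.5, 301 and 303 in vehicle samples. The groups did not overlap, and the log2 difference was 0.13 ± 0.03 (limma, adjusted p = 0.0037). At 24 h it was lower, with 236, 242, 230.3 and 251 against 249, 265, 263 and 276 FPKM, where CBD replicate 4 exceeded vehicle replicate 1 (−0.13 ± 0.03, limma adjusted p = 0.00047). The 6 h call was lost with relative depth as a covariate and without vehicle 6 h replicate 2, 3 or 4 or CBD 6 h replicate 1 (adjusted p = 0.010 to 0.017). HSPE1 is read with caution, since 39.2% of its 50-base words occur in other genes, the readthrough transcript HSPE1-MOB4 among them, and its annotated span lies within that of HSPD1 on the opposite strand. The libraries were strand-specific per the methods, and whether strand was used in counting is not given in the sources used here.

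**Figure D2:**
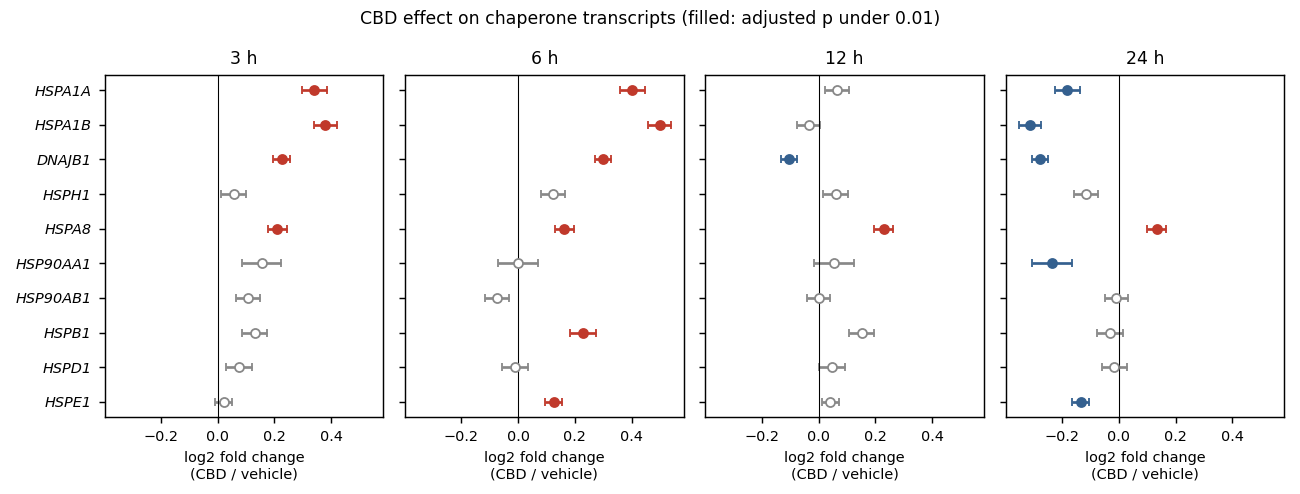
Log2 fold change of CBD over vehicle (limma on log2(FPKM + 1), bars are ±1 SE, n = 4 per arm) for the 10 chaperone transcripts at 3, 6, 12 and 24 h. Filled points passed an adjusted p of 0.01, red higher and blue lower with CBD: the count higher was 4, 6, 1 and 1 in order of time, and the count lower 0, 0, 1 and 5. Of all genes tested, 1.18%, 4.07%, 8.85% and 20.8% were called higher and 1.28%, 6.13%, 11.2% and 21.3% lower.

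Whether the CBD effect itself changed with time was tested as an interaction, the log2 difference at one time minus that at another. The members were chosen with earlier results of these data known. The interaction results here and in the next paragraph therefore describe them and are no independent test. From 3 to 6 h no member's change passed the threshold in limma, where 0.705% of genes tested were called upward and 1.39% downward. At an unadjusted p under 0.05 there were 3, HSP90AB1 (−0.18 ± 0.06, limma adjusted p = 0.065), HSPA1B and HSPE1, and HSP90AB1 was called without CBD 3 h replicate 1 (adjusted p = 0.0087) or CBD 6 h replicate 4 (adjusted p = 0.0083). From 6 to 12 h the effect fell by 0.53 ± 0.06 for HSPA1B (limma, adjusted p = 5.8e-07), by 0.40 ± 0.04 for DNAJB1 (adjusted p = 2.7e-07) and by 0.34 ± 0.06 for HSPA1A (adjusted p = 0.00092). These 3 were the members called, all downward, where 0.895% of genes were called downward and 1.43% upward. From 12 to 24 h the effect fell by 0.28 ± 0.06 for HSPA1B (adjusted p = 0.0011), by 0.25 ± 0.06 for HSPA1A (adjusted p = 0.0062), by 0.18 ± 0.04 for HSPE1 (adjusted p = 0.0053) and by 0.17 ± 0.04 for DNAJB1 (limma, adjusted p = 0.0044), where 3.45% of genes were called downward and 4.69% upward. This count of 4 fell to 1 without vehicle 12 h replicate 4 or CBD 12 h replicate 4 and to 2 without vehicle 24 h replicate 2, 3 or 4 or CBD 24 h replicate 1 or 2. The estimates for successive intervals share the samples of the time between them.

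Between 3 and 24 h the effect fell for 5 members, where 14.3% of genes were called downward and 12.9% upward. HSPA1B fell by 0.69 ± 0.06 (adjusted p = 3.3e-10), HSPA1A by 0.52 ± 0.06 (adjusted p = 1.6e-07) and DNAJB1 by 0.50 ± 0.04 (limma, adjusted p = 3.1e-10). HSP90AA1 fell by 0.39 ± 0.10 (adjusted p = 0.0027) and HSPE1 by 0.16 ± 0.04 (limma, adjusted p = 0.0046). The HSPE1 change was lost under quantile normalization (adjusted p = 0.20) and without any one of 5 libraries. All 10 members had a lower effect at 24 h than at 3 h, with a median of −0.17 against −0.0083 over all genes. HSPA8, called higher at both ends, had a change of −0.08 ± 0.05 that was not called (limma, adjusted p = 0.22).

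The chaperone transcripts also moved in vehicle alone. From 3 to 6 h in vehicle, 5 members rose (6.26% of genes tested were called higher) and 1 fell (3.22%). HSPA1A rose by 0.63 ± 0.04 on the log2 scale (adjusted p = 2.8e-10), HSPA1B by 0.60 ± 0.04 (adjusted p = 2.8e-10), HSPA8 by 0.41 ± 0.03 (adjusted p = 2.3e-08), DNAJB1 by 0.28 ± 0.03 (adjusted p = 5.3e-07) and HSPH1 by 0.21 ± 0.04 (limma, adjusted p = 0.0011), and HSPE1 fell by 0.13 ± 0.03 (adjusted p = 0.0034). HSPA1A in vehicle at 6 h, at 9.80 to 10.1 FPKM, was above HSPA1A in CBD at 3 h, at 7.63 to 8.34 FPKM, without overlap. These vehicle changes of HSPA1A and HSPA1B stand beside CBD differences of 0.40 and 0.50 at 6 h.
At 12 h 6 members were above vehicle at 3 h (15.9% of genes) and none was below (10.8%; 2 members had negative estimates). HSPA8 stood 0.48 ± 0.03 above (adjusted p = 1.4e-10), HSPA1A 0.31 ± 0.04, HSPH1 0.29 ± 0.04, HSPA1B 0.27 ± 0.04, HSP90AB1 0.22 ± 0.04 and HSPD1 0.18 ± 0.04 (limma, adjusted p up to 0.0023). At 24 h 2 members were above their 3 h level (26.6% of genes) and 4 below (31.1%), counts not far from these shares. HSPA8 and HSP90AB1 were above by 0.14 ± 0.03 and 0.16 ± 0.04, and DNAJB1 (−0.39 ± 0.03), HSPA1B (−0.35 ± 0.04), HSPE1 (−0.33 ± 0.03) and HSPA1A (−0.21 ± 0.04) were below (limma, adjusted p up to 0.0012). HSPA1A, HSPA1B, DNAJB1 and HSPE1 were therefore lower at 24 h than at 3 h in vehicle and lower again with CBD at 24 h. HSPA8 and HSP90AB1 were not called above their 3 h level at 24 h under quantile normalization, where HSP90AB1 stood at −0.015.

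Of 5 transcripts of heat shock factors and their regulators, HSF1 alone was not called at any time in the main fit. With the replicate number as a block in the model, HSF1 was called at 24 h. HSF1, the main stress-activated factor, had 38.5 ± 1.69 FPKM in vehicle and 40.1 ± 1.00 with CBD at 3 h, with log2 differences of 0.06, 0.02, 0.09 and 0.12 in order of time (limma, adjusted p = 0.46, 0.82, 0.15 and 0.021). HSF2 was called at 24 h, with 25.3 ± 0.89 FPKM against 22.2 ± 0.367 (0.18 ± 0.03, limma adjusted p = 5.4e-05). HSBP1, a small protein that binds heat shock factors, was lower with CBD at 12 h (−0.12 ± 0.03, adjusted p = 0.0031) and at 24 h (−0.20 ± 0.03, limma adjusted p = 3.8e-06). Of the 5 HSF regulators, none was called at 3 or 6 h. At 12 h 1 was higher and 1 lower (8.85% and 11.2% of all genes tested), and at 24 h 2 were higher and 1 lower (20.8% and 21.3%). HSF4 was the gene higher at 12 h (0.26 ± 0.06, limma adjusted p = 0.0015), and HSBP1L1 was higher at 24 h (0.25 ± 0.08, limma adjusted p = 0.0086).

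Of the other lists, only the one labelled as other HSF1-inducible genes held calls at 3 h. The name is only a label, and whether HSF1 acted on these genes was not tested. Of all genes tested, 1.18%, 4.07%, 8.85% and 20.8% were called higher at 3, 6, 12 and 24 h, and 1.28%, 6.13%, 11.2% and 21.3% lower. Among 13 tested of 14 other HSF1-inducible genes, 3 were higher at 3 h and none lower. At 6 h 2 were higher and 2 lower, at 12 h 1 was higher and 3 were lower, and at 24 h 1 was higher and 4 were lower. SERPINH1 (HSP47), the collagen chaperone of the endoplasmic reticulum, was higher at 3 h (0.25 ± 0.04, adjusted p = 6.0e-05) and at 6 h, with 28.6 ± 0.51 FPKM against 20.7 ± 0.835 (0.45 ± 0.04, limma adjusted p = 7.2e-10), and lower at 24 h (−0.14 ± 0.04, adjusted p = 0.0018). SQSTM1 (p62), an autophagy receptor, was higher at 6, 12 and 24 h, by 0.37, 0.36 and 0.56, each ± 0.04 (limma, adjusted p = 3.2e-08, 2.0e-08 and 1.2e-12). HSPA5 (BiP), the HSP70 of the endoplasmic reticulum, was higher at 3 h (0.21 ± 0.05, adjusted p = 0.0043) and lower at 12 h (−0.48 ± 0.05, adjusted p = 6.0e-09) and 24 h (−0.42 ± 0.05, limma adjusted p = 1.7e-08). RGS2, a regulator of G-protein signaling, was lower at 6, 12 and 24 h, down to −0.55 ± 0.05 (limma, adjusted p = 1.2e-09), and CLPB, a mitochondrial disaggregase, was lower at 6, 12 and 24 h, at −0.17, −0.20 and −0.13, each ± 0.02 (limma, adjusted p = 4.0e-06, 6.7e-08 and 2.5e-05).

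No gene of the other HSP70 family (8 tested of 10) was called at 3 h. At 6 h 2 were lower (6.13% of all genes tested) and at 12 h 3 were lower (11.2%). At 24 h 1 was higher (20.8%) and 4 were lower (21.3%). HSPA12A was lower at 6, 12 and 24 h, at −0.19 ± 0.02 each time (limma, adjusted p = 1.0e-08, 2.9e-09 and 1.5e-09). HSPA14 was also lower at these times, at −0.12, −0.10 and −0.23, each ± 0.02 (limma, adjusted p = 0.00066, 0.0013 and 4.5e-09), and HSPA1L was lower at 12 h (−0.26 ± 0.04) and 24 h (−0.32 ± 0.04). HSPA9 (mortalin), the mitochondrial HSP70, was higher at 24 h, with 172 ± 3.05 FPKM against 147 ± 3.68 (0.22 ± 0.03, limma adjusted p = 2.7e-07), and HSPA13 was lower (−0.24 ± 0.04, limma adjusted p = 3.9e-05). HSPA6, a strictly stress-inducible HSP70, had a mean of 0.112 FPKM over all samples and was not tested. None of the 12 J-domain proteins was called at 3, 6 or 12 h. At 24 h 2 were higher and 5 lower (20.8% and 21.3% of all genes tested). DNAJA1, the major cytosolic J-protein, was lowest, with 102 ± 4.47 FPKM against 138 ± 5.57 (−0.43 ± 0.07, limma adjusted p = 9.6e-06). DNAJA4 was also lower (−0.27 ± 0.04), and DNAJA2 (0.12 ± 0.03) and DNAJA3 (0.10 ± 0.02) were higher (limma, adjusted p up to 0.0031).

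The 21 co-chaperones of HSP90 and HSP70 held no call at 3, 6 or 12 h. At 24 h 1 was higher and 9 were lower (20.8% and 21.3% of all genes tested). CACYBP, a co-chaperone that binds SIAH1, was lower (−0.18 ± 0.05, limma adjusted p = 0.0053), as was the myosin chaperone UNC45A (−0.17 ± 0.03, limma adjusted p = 1.2e-05), and TRAP1, the mitochondrial HSP90, was higher (0.11 ± 0.03, limma adjusted p = 0.0028). Of 14 chaperonin and prefoldin subunits, none was called at 3 or 6 h. At 12 h 1 was lower (11.2% of all genes tested), and at 24 h 3 were lower, near the share of all genes tested (21.3%). PFDN1 was lower at both times (−0.13 ± 0.03 and −0.18 ± 0.03, limma adjusted p = 0.0017 and 1.2e-05) and VBP1 at 24 h (−0.12 ± 0.04, limma adjusted p = 0.0097). Of 8 small heat shock proteins other than HSPB1, 3 passed the filter on low values. HSPB7 was lower at 6, 12 and 24 h, down to 2.39 ± 0.17 against 4.25 ± 0.253 FPKM (−0.63 ± 0.04, limma adjusted p = 4.5e-12). HSPB8, which acts in chaperone-assisted autophagy, was higher at 24 h (0.39 ± 0.05, limma adjusted p = 1.2e-06), and HSPB11, also known as a subunit of intraflagellar transport, was lower (−0.31 ± 0.05, limma adjusted p = 1.8e-05). CRYAB had a mean of 0.0335 FPKM and was not tested.

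**Figure D3:**
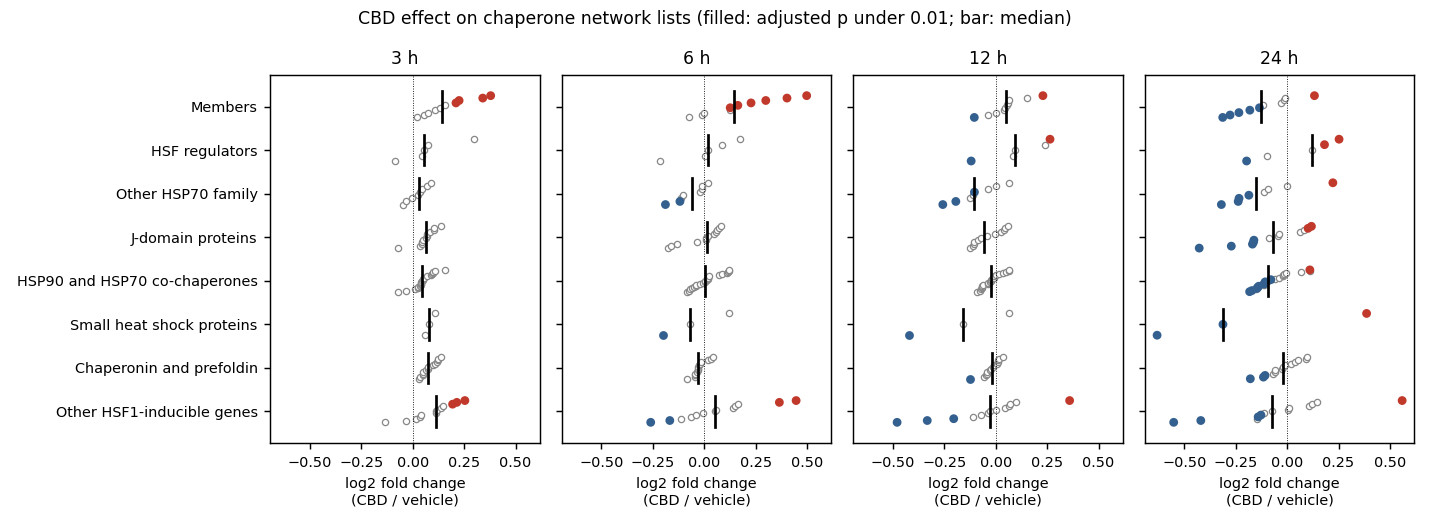
Log2 fold change of CBD over vehicle for every tested gene of the 10 members and of 7 chaperone lists (rows) at 3, 6, 12 and 24 h, with list medians as bars. Filled points passed an adjusted p of 0.01 in limma, red higher and blue lower. At 3 h 4 members and 3 genes of the list labelled HSF1-inducible were higher (1.18% of all genes tested). At 24 h 9 of 21 co-chaperones were lower (21.3% of all genes tested).

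The members did not follow a single pattern across the 32 samples. Pearson correlations of log2(FPKM + 1) are given as a description, since the samples fall into 8 groups that share times and treatments. HSPA1A and HSPA1B correlated at 0.99, HSPA1B and DNAJB1 at 0.98, and HSPA1A and DNAJB1 at 0.94. Among all genes tested, each of the HSP70 pair was nearest to the other, then to DNAJB1, then to SDF2L1 (0.93 and 0.95), a protein of the endoplasmic reticulum, and DNAJB1 was nearest to HSPA1B, TMEM50B (0.96) and C11orf84 (0.96). HSPH1 was nearest to the co-chaperones PPID (0.91) and CHORDC1 (0.91) and to the HSP110 protein HSPA4 (0.91), and HSP90AA1 to CACYBP (0.96), the proteasome subunit PSMC1 (0.95) and DNAJA1 (0.95). No member was among the 10 nearest genes of HSPH1, HSP90AA1, HSP90AB1, HSPB1, HSPD1 or HSPE1. HSP90AB1 was unlike the inducible members, at −0.15 with HSPA1B and −0.25 with DNAJB1, and closest to MYH10 (0.91). HSPE1 was nearest to PRDX1 (0.95), HSPD1 to THOC7 (0.92), HSPB1 to GSTP1 (0.89) and HSPA8 to CAT (0.83), and HSPD1 and HSPE1 correlated at 0.44.

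**Figure D4:**
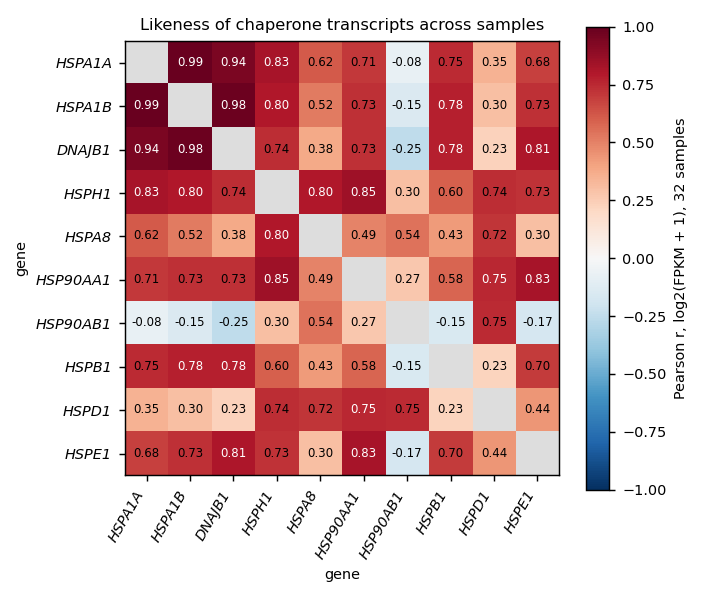
Pearson correlation of log2(FPKM + 1) between each pair of the 10 chaperone transcripts over 32 samples, from −1 in blue to 1 in red. HSPA1A, HSPA1B and DNAJB1 form a block at 0.94 to 0.99, and HSP90AB1 is near or below 0 with these 3. HSPA1A and HSPA1B share most of their sequence, so their values are not independent.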

How the data were processed

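RNA was extracted from SK-N-BE(2) cells, and polyA libraries were sequenced as single 50-base reads. The authors used Trimmomatic 0.36 for trimming, Tophat for alignment to hg19 with up to 2 mapping locations per read, and Cufflinks for quantification. The deposited values are FPKM for each sample and were not rescaled here. A deposited table of the authors' own Cuffdiff fold changes and q-values was not used. FPKM hold no read totals, so depth was estimated only as a ratio between samples (0.785 to 1.20), from the smallest steps of 1585 low genes.

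Groups were taken from the labels. Genes whose FPKM averaged 1 or more over the samples were tested (12621, all 10 members among them). On the log2(FPKM + 1) scale, 8 group means were fitted with limma 3.58.1 (R 4.3.3; empirical Bayes with intensity trend). Benjamini-Hochberg adjustment was made over all genes within each comparison, with a call at an adjusted p under 0.01. Each member's CBD difference at each time was also tested with an exact two-sided permutation test (scipy 1.17.1, Python 3.11.15), which cannot go below 0.0286 with 4 against 4 samples. Labels number the replicates without saying whether they were separate experiments, so p-values measure the spread between these samples. The fit was also run on simulated data with independent noise and added CBD differences. That simulation held no drift over time and no deviation of whole libraries, so it does not speak to these.

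Named genes are the 10 members, HSF1, HSF2 and HSBP1, up to 2 genes called in each direction per list and time by size, and the 3 genes most correlated with each member. The members and lists were chosen with earlier results of these data known. Promoters were read from RefSeq (GRCh38.p14), gene spans from GENCODE version 44 on hg19. Alternatives were another pseudocount (0.1 or 5), filter, scaling, model or threshold, a replicate block, and each of 32 samples left out.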

Additional observations from a re-analysis of the deposited data

Results flagged for a closer look

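Of 80 sets of 4 samples (10 members in 8 groups), 2 held a sample far from the other 3, and chance alone gives about 1 in 20. Both were HSP90AA1 in vehicle: replicate 2 at 6 h had 867 FPKM with the others at 966 to 978, and replicate 1 at 12 h had 906 FPKM with the others at 971 to 983.

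For 5 members, HSPA1A and HSPA1B counted separately, the CBD effect differed between times by the interaction test in limma. Of all genes tested, 0.895% were called downward from 6 to 12 h, 3.45% from 12 to 24 h and 14.3% from 3 to 24 h. Called upward were 1.43%, 4.69% and 12.9%. From 6 to 12 h the log2 effect changed by −0.34 for HSPA1A, −0.53 for HSPA1B and −0.40 for DNAJB1. From 12 to 24 h it changed by −0.25 for HSPA1A, −0.28 for HSPA1B, −0.17 for DNAJB1 and −0.18 for HSPE1. From 3 to 24 h it changed by −0.52 for HSPA1A, −0.69 for HSPA1B, −0.50 for DNAJB1, −0.39 for HSP90AA1 and −0.16 for HSPE1. The 24 h effects were called lower for all 5 of these genes (21.3% of genes tested). The 3 h effects were called higher for HSPA1A, HSPA1B and DNAJB1 (1.18% of genes tested).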

How the results depend on the processing

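Under other settings, counts of members called stayed within 1.5 times the reported count in 251 repeats and moved further in 13. With only the time points compared, members higher at 3 h fell from 4 to 1, members higher at 12 h rose from 1 to 2, members lower at 12 h fell from 1 to 0 and members lower at 24 h fell from 5 to 3; this fit holds fewer samples. Members higher at 12 h were also 2 under quantile normalization, the replicate block and an adjusted p under 0.05, the added gene being HSPB1. Members lower at 12 h (DNAJB1) were 0 without a filter, under median-ratio scaling, under quantile normalization and with depth as a covariate. Under quantile normalization, members higher fell from 1 to 0 at 24 h and from 2 to 0 in vehicle at 24 h against 3 h; the cause was not tested.

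Leaving out 1 library at a time, members higher at 12 h ranged from 1 to 2 (2 without vehicle 3 h replicate 4, vehicle 6 h replicate 1, CBD 3 h replicate 2, or CBD 24 h replicate 1 or 2), lower at 12 h from 0 to 1 (0 without vehicle or CBD 12 h replicate 1, 2 or 3) and higher at 24 h from 0 to 1 (0 without vehicle 24 h replicate 2). The change from 3 to 6 h called downward ranged from 0 to 1 (HSP90AB1, without CBD 3 h replicate 1 or CBD 6 h replicate 4), that from 12 to 24 h from 1 to 4, and members lower in vehicle at 6 h from 0 to 1 (0 without vehicle 3 h replicate 1 or vehicle 6 h replicate 2).

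HSP90AB1 in vehicle at 24 h, reported as a called 0.16, turned to −0.015 under quantile normalization. The other signs that turned were of differences that were not called: HSPA1A at 12 h (−0.0021 summed with HSPA1B), HSP90AA1 at 6 h (0.0071 median-ratio, 0.014 quantile), HSP90AB1 at 12 h (0.0014 median-ratio, 0.0095 depth), its change from 12 to 24 h (0.029 quantile), HSPD1 in vehicle at 24 h (−0.016 median-ratio), HSPE1 at 3 h (−0.049 quantile) and HSBP1 at 6 h (−0.016 quantile). With 1 library left out, the log2 differences with a turned sign ranged from −0.021 to 0.026 for HSBP1 at 6 h, −0.011 to 0.048 for HSF1 at 6 h, −0.077 to 0.045 for HSP90AA1 at 6 h, −0.018 to 0.023 and −0.028 to 0.0081 for HSP90AB1 at 12 and 24 h, −0.032 to 0.0082 for its change from 12 to 24 h, −0.076 to 0.0068 for HSPB1 at 24 h, −0.037 to 0.026 for HSPB1 in vehicle at 6 h, −0.052 to 0.019 for HSPD1 at 6 h and −0.0027 to 0.033 for HSPD1 in vehicle at 24 h.

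Same-numbered CBD and vehicle samples did not deviate together over all genes tested (correlations −0.0757 to 0.0935). The labels do not say whether cultures were set up in pairs, and these correlations cannot decide it. The replicate block added calls of HSPB1 at 12 h (adjusted p = 0.0033), HSPH1 at 6 h (0.0092) and 24 h (0.0046) and in its change from 3 to 24 h (0.0047), HSPB1 in vehicle at 24 h (0.0075) and HSF1 at 24 h (0.0030), and changed no other member's call. Among called genes, the share called higher moved from 66.1% to 40.8% under median-ratio scaling and 49.0% under quantile normalization in vehicle at 6 h, from 59.5% to 48.8% (median-ratio) in vehicle at 12 h, from 57.6% to 39.0% (median-ratio) for the change from 12 to 24 h and from 33.6% to 44.7% (quantile) for the change from 3 to 6 h. Depth limits are unknown, since FPKM carry no counts.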
